A study of Mus musculus with 6 samples.

Results

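Lipid droplet proteins were followed in the epididymal white adipose tissue (eWAT) of cachectic mice. They comprise the 5 perilipins (Plin1, Plin2, Plin3, Plin4 and Plin5), the droplet fusion protein gene Cidec, the fat storage inducing genes Fitm1 and Fitm2, and the seipin gene Bscl2. These 9 genes, of 54532 in the count table, were chosen by symbol. The eWAT, the fat pad beside the epididymis, came from 3 control mice and 3 cachectic mice, all labelled C57BL/6. In the study's methods the mice are male and 6 to 10 weeks old when obtained, and the labels give no allele beyond the strain. The cachectic mice were inoculated under the skin with cells of Lewis lung carcinoma (LLC), a mouse lung cancer line, and were defined as cachectic by their loss of body weight, so that they represent 1 line and 1 site of tumor growth. The tissue was taken on day 21, and what the control mice received in place of tumor cells is not given in the sources used here. Total RNA of the whole fat pad was sequenced, and nothing in the labels says more of the samples than their group and number, so the p-values measure the spread between these 6 samples.

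A lipid droplet is a core of triglyceride and sterol ester under a single layer of phospholipid, and perilipins coat that layer and control which lipases reach the core. In the white adipocyte, Plin1 is the main coat protein. At rest it holds ABHD5, the co-activator of the lipase ATGL, and under adrenergic signals it is phosphorylated and lets lipolysis proceed. Seipin and the FIT proteins act in the endoplasmic reticulum, where droplets bud, and CIDEC sits at the contact between droplets and moves lipid from a smaller droplet into a larger one.

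Expression of a pair of these genes was higher in cachectic eWAT. Cidec rose 1.83-fold and Fitm2 rose 1.60-fold, while none of the 5 perilipins passed the test. Plin1 had the largest difference among the members, with a log2 fold change of -1.44 and groups that did not overlap, but its adjusted p-value of 0.0570 (edgeR quasi-likelihood test, Benjamini-Hochberg over 16003 genes) missed the threshold of 0.05. Of the 9 genes, 8 had enough counts to be tested; 2 were higher, 0 were lower and 6 were not called, where 9.0% of all genes tested were called higher, 8.63% were called lower and 17.6% were called in either direction. Groups did not overlap in 3 of the 8, Plin1, Cidec and Fitm2, beside 40.5% of all genes tested. The median log2 fold change of the 8 was 0.04, against -0.00 over all genes. Calls of these members depended on the setting. Of 15 other settings, Cidec was called higher in 5, Fitm2 higher in 9 and Plin1 lower in 6.

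**Figure D1:**
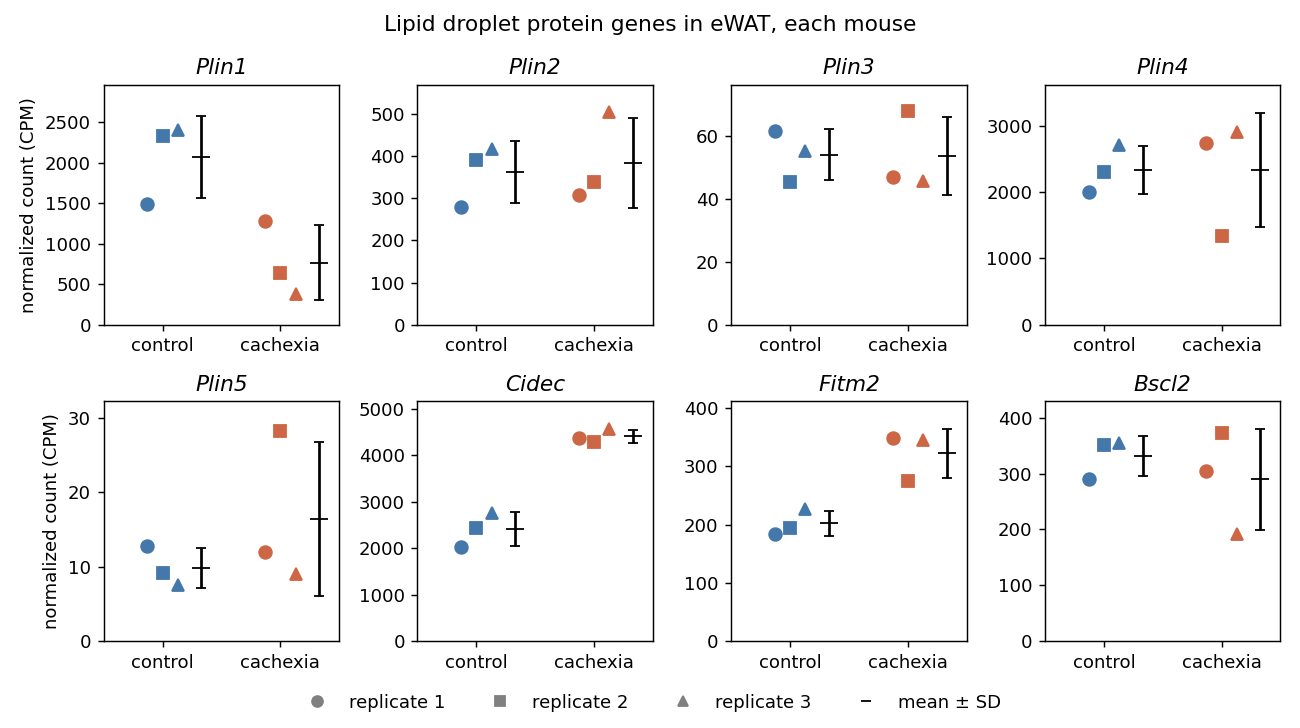
Normalized count (CPM, y axis from 0) of the 8 tested lipid droplet protein genes in each of 3 control and 3 cachectic mice. Each marker is 1 mouse, with the marker's shape giving its replicate number, and bars give the mean ± SD; cachectic mice lie above all control mice for Cidec and Fitm2 and below all control mice for Plin1.

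Cidec encodes the protein that enlarges droplets by fusing them and is needed for the single large droplet of the white adipocyte. Its normalized count (CPM, the count scaled to the library size after TMM normalization) is given, as for all genes here, in the order of replicates 1, 2 and 3. It reached 2031, 2436 and 2760 CPM in control mice and 4369, 4284 and 4561 CPM in cachectic mice. Every cachectic mouse lay above every control mouse, and the cachectic mice were closer to one another than the control mice were. The coefficient of variation was 15.2% in control mice and 3.22% in cachectic mice. In edgeR's quasi-likelihood test the log2 fold change was 0.87 (SE 0.22, 95% confidence interval 0.36 to 1.38, adjusted p = 0.0322). Cidec alone took 0.216% to 0.258% of all counts in control mice and 0.434% to 0.466% in cachectic mice. Without any 1 of the 6 mice, Cidec was not called (edgeR adjusted p from 0.0503 to 0.115), and its log2 fold change then lay between 0.76 and 0.98. It was not called either when no filter on low counts was set (edgeR adjusted p = 0.0773) or on log2 FPKM (limma adjusted p = 0.0972 with a pseudocount of 1).

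Fitm2 encodes an enzyme of the endoplasmic reticulum that is needed for droplets to bud toward the cytosol. It was counted at 185, 194 and 227 CPM in control mice and at 349, 274 and 344 CPM in cachectic mice. The groups did not overlap, and the lowest cachectic mouse was replicate 2. Fitm2 had a log2 fold change of 0.67 (SE 0.16, 95% confidence interval 0.30 to 1.05, edgeR adjusted p = 0.0284). The call was kept without cachexia replicate 2 (edgeR adjusted p = 0.0268) and lost without any other mouse, at adjusted p-values up to 0.107 and a log2 fold change of at least 0.61. An antisense transcript, 2310001K24Rik, overlaps Fitm2 by 673 bases on the other strand. Its log2 fold change was 1.52 (edgeR adjusted p = 0.0565), but it reached only 0.652 ± 0.0438 CPM in control mice and 1.89 ± 0.890 CPM in cachectic mice (SD, n = 3). The overlap was taken from the start and end of each gene, and exons were not compared. Whether the counting used strand is not given in the sources used here, so how reads in the overlap were counted is not known.

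Fitm1, the muscle member of the same pair, had 2, 0 and 0 counts in control mice and 0, 0 and 1 in cachectic mice and was not tested. Fitm2 was thus the FIT gene with measurable RNA in this tissue.

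The promoter windows of the genes that rose are shown because Cidec and Fitm2 moved in the same direction in the same mice. RefSeq starts in the GRCm38.p6 table gave 13 windows for 9 of the 9 members, each of 300 bases, from 250 before to 50 after a start. Each was searched on both strands for the nuclear receptor element AGGTCA and for a direct repeat of AGGTCA with 1 base between, allowing up to 3 mismatches, the form to which PPARγ with RXR binds. The other motifs were the C/EBP letters TTGCNNCAA, the E-box (CACGTG), the CCAAT box, the TATA box (TATAAA) and the GC box (GGGCGG). Capitals mark every match, the single element lies within the repeat where both match, and the sequences run 5′ to 3′ on the gene's strand. The Cidec window is that of the outer of its 2 starts.
Cidec, chr6:113435711-113436010, minus strand: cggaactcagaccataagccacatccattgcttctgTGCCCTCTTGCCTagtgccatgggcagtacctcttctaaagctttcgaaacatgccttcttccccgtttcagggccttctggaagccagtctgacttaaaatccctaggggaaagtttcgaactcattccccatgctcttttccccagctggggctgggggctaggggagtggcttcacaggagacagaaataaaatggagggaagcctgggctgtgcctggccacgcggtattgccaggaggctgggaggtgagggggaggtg
Fitm2, chr2:163472580-163472879, minus strand: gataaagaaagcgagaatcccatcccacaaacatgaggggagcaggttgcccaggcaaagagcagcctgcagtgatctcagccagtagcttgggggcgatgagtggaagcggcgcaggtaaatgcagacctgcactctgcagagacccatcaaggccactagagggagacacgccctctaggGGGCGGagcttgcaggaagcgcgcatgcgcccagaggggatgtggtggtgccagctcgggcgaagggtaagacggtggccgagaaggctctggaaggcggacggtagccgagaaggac
The Cidec window held 1 match, a direct repeat with 3 mismatches at -214 from the start on the opposite strand, and the Fitm2 window held a GC box at -68. Such a repeat occurs in 24.6% of all 32851 windows of this length and a GC box in 35.7%, so both matches are common ones. The 2 windows shared no motif among those searched.

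Among the perilipins, Plin1 and Plin4 made up most of the RNA in adipose tissue. Plin1 was counted at 1492, 2328 and 2401 CPM in control mice and at 1281, 634 and 385 CPM in cachectic mice. Control replicate 1 was the lowest control mouse and cachexia replicate 1 the highest cachectic mouse, and only a narrow gap separated these. The cachectic mice also differed from one another more than the control mice did, with a coefficient of variation of 60.4% against 24.4%. The log2 fold change was -1.44 (SE 0.43, 95% confidence interval -2.44 to -0.43), which edgeR did not call (adjusted p = 0.0570). Plin1 was called lower when no filter on low counts was set (edgeR adjusted p = 0.0361), by DESeq2 (adjusted p = 0.00204), by limma-voom (adjusted p = 0.0450) and by limma on log2 FPKM (adjusted p = 0.0493 with a pseudocount of 1). It was also called without cachexia replicate 1, where the log2 fold change was -2.03 (edgeR adjusted p = 0.0189), and without cachexia replicate 3 the log2 fold change was -1.11 (edgeR adjusted p = 0.0992).

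Plin4 coats small nascent droplets in adipocytes through a long repetitive helix. Its level was 1998, 2298 and 2707 CPM in control mice and 2741, 1339 and 2914 CPM in cachectic mice. Cachexia replicate 2 was the lowest of the 6 mice and the other cachectic mice were the highest, so the groups overlapped. The log2 fold change was -0.00 (95% confidence interval -0.74 to 0.74, edgeR adjusted p = 0.997), it turned to 0.052 when counts were scaled by library totals, and it was 0.28 without cachexia replicate 2. Hdgfl2, on the other strand, shares 17 bases with Plin4. Changes of Plin4 within the bounds of its 95% confidence interval remain compatible with the values in these mice.

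Plin2, the coat protein of droplets in most cell types and of small droplets in immature adipocytes, was at 279, 390 and 417 CPM in control mice and at 308, 339 and 506 CPM in cachectic mice. The groups overlapped throughout, with the highest value in cachexia replicate 3, the mouse with the lowest Plin1. The log2 fold change was 0.09 (95% confidence interval -0.48 to 0.65, edgeR adjusted p = 0.837) and lay between -0.16 and 0.22 when 1 mouse was left out. Plin3, a widely expressed perilipin that moves between cytosol and new droplets, was at 45.3 to 61.5 CPM in control mice and at 45.7 to 68.0 CPM in cachectic mice. Its log2 fold change of -0.01 (95% confidence interval -0.46 to 0.43, edgeR adjusted p = 0.972) turned to 0.034 when counts were scaled by library totals.

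Plin5 belongs to tissues that burn fat, where it ties droplets to mitochondria. It was low in eWAT, at 12.7, 9.17 and 7.54 CPM in control mice and at 12.0, 28.2 and 9.05 CPM in cachectic mice. Cachexia replicate 2 stood far above the other 5 mice, which overlapped. For Plin5 the log2 fold change was 0.74 (SE 0.42, 95% confidence interval -0.24 to 1.72, edgeR adjusted p = 0.256). It was 0.10 without cachexia replicate 2 and 1.03 without cachexia replicate 3 (edgeR adjusted p = 0.125). Cachexia replicate 2 held the highest values of Cidea (6.69 CPM against at most 2.29 in the others) and Cox8b (34.7 CPM against at most 5.37), genes of brown or beige adipocytes. It was also highest for Ppara (26.5 CPM against at most 7.68), the nuclear receptor of fat burning tissues. Other brown or beige markers were mixed. Elovl3 was highest in this mouse (0.676 CPM against at most 0.292), and Zic1 was at 0. Ppargc1a (8.78 CPM) and Dio2 (0.0614 CPM) were higher in control mice, at up to 13.0 and 2.04 CPM. Cpt1b (0.184 CPM) was higher in cachexia replicate 3, at 0.328 CPM. The part that these cells may have in the Plin5 value was not tested; Ucp1 was at 0.0614 CPM in this mouse and at most 0.0567 CPM in the others.

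Bscl2 encodes seipin, the protein at the neck between the endoplasmic reticulum and a growing droplet. It was counted at 289, 350 and 354 CPM in control mice and at 305, 372 and 193 CPM in cachectic mice. Cachexia replicate 3 was the lowest and cachexia replicate 2 the highest of the 6 mice. The log2 fold change was -0.19 (95% confidence interval -0.76 to 0.37, edgeR adjusted p = 0.620), and without cachexia replicate 3 it was 0.04. The gene Gng3 overlaps Bscl2 by 1780 bases on the other strand but was at 1.14 ± 0.229 CPM in control mice and 1.28 ± 0.145 CPM in cachectic mice (SD, n = 3).

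Levels of different genes were compared per length, as RPKM, the CPM divided by the deposited gene length in kilobases. In control mice Cidec was the most abundant member, at 1298 ± 197 RPKM (SD, n = 3 here and below). Plin1 at 446 ± 109 and Plin4 at 404 ± 61.6 RPKM followed and did not differ beyond their spread. Below them came Plin2 at 103 ± 20.8 RPKM, then Bscl2 at 56.2 ± 6.17 and Fitm2 at 50.9 ± 5.55. The ranges of Bscl2 and Fitm2 overlapped, but Fitm2 was below Bscl2 in every control mouse (RPKM ratio 0.948, 0.825 and 0.951). Plin3 at 14.3 ± 2.15 and Plin5 at 4.70 ± 1.28 RPKM were the lowest that were measurable. In cachectic mice Cidec was at 2373 ± 76.4 RPKM and Plin4, at 404 ± 150, took the next place before Plin1 at 165 ± 99.5 and Plin2 at 109 ± 30.3. The mean levels of Plin1 and Plin2 there differed by less than the SD of Plin1. Fitm2 at 81.2 ± 10.6 stood above Bscl2 at 49.2 ± 15.4 with no overlap between the mice. The ranges of Plin3 at 14.2 ± 3.30 and Plin5 at 7.87 ± 4.94 overlapped, though Plin3 was the higher in each cachectic mouse.

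The make-up of the perilipin RNA was set out as the share of each perilipin in the summed RPKM of all 5, a ratio within a mouse that does not depend on the scaling between mice. Plin1 made up 41.8%, 48.8% and 46.0% in control mice and 32.2%, 27.5% and 11.1% in cachectic mice. Plin4 made up 45.0%, 38.8% and 41.8% in control mice and 55.4%, 46.7% and 67.5% in cachectic mice. For both, every cachectic mouse lay outside the control range, Plin1 below it and Plin4 above it. The mean share of Plin1 was 45.5% ± 3.55 against 23.6% ± 11.1 and that of Plin4 was 41.8% ± 3.12 against 56.5% ± 10.4 (SD, n = 3). In a two-sided exact permutation test both gave p = 0.1, the smallest that 3 against 3 mice allow, which is 0.25 after Benjamini-Hochberg adjustment over the 5 shares. The shares of Plin2 (10.6% against 16.3%, exact permutation p = 0.4), Plin3 (1.53% against 2.23%, exact permutation p = 0.5) and Plin5 (0.515% against 1.33%, exact permutation p = 0.3) overlapped between the groups, each with an adjusted p of 0.5. The difference in the Plin4 share, 14.7 percentage points, was 9.23 without cachexia replicate 3, and that in the Plin2 share, 5.74, was 8.78 without cachexia replicate 1. Without cachexia replicate 2 the difference in the Plin3 share went from 0.703 to 0.00703 and that in the Plin5 share from 0.810 to 0.111 percentage points, and without cachexia replicate 1 the former was 1.09. The shares of the 5 perilipins are not independent of one another, since they sum to the whole.

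**Figure D2:**
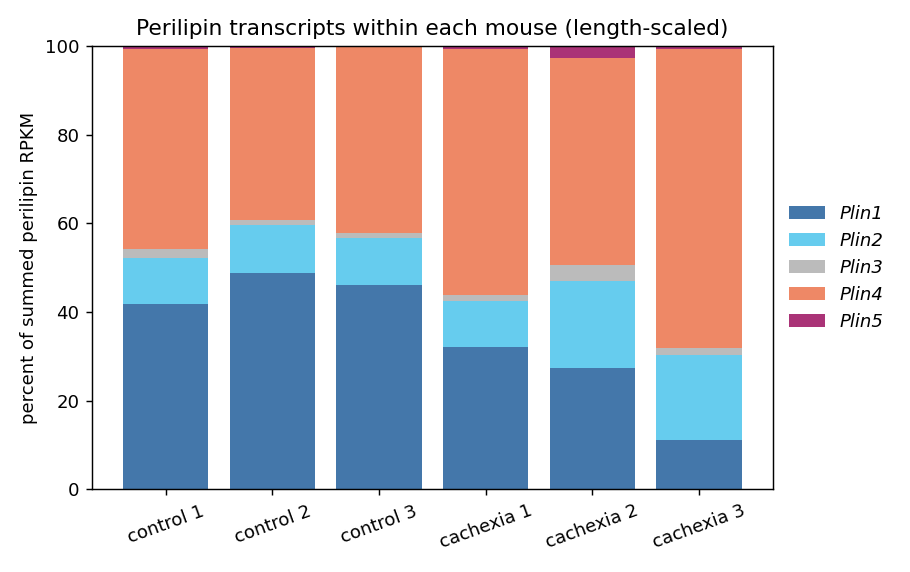
Percent of the summed perilipin RPKM (y axis) taken by each of the 5 perilipins in each of the 6 mice (x axis), stacked. The Plin1 segment spans 41.8% to 48.8% in control mice and 11.1% to 32.2% in cachectic mice, and the Plin4 segment spans 38.8% to 45.0% and 46.7% to 67.5%.

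Ratios within a mouse are given without a test, since the pairs were chosen after the values were seen. Those between perilipins restate the shares above, and every ratio to Plin1 carries the lower Plin1 of cachectic mice. They are no further evidence of a shift. The RPKM ratio of Plin4 to Plin1 was 1.08, 0.794 and 0.907 in control mice and 1.72, 1.70 and 6.09 in cachectic mice. That of Plin2 to Plin1 was 0.248, 0.222 and 0.230 in control mice and 0.319, 0.708 and 1.74 in cachectic mice, so that Plin2 exceeded Plin1 per length in 1 cachectic mouse. Cidec stood at 3.41, 2.62 and 2.88 times Plin1 in control mice and at 8.54, 16.9 and 29.7 times Plin1 in cachectic mice. Fitm2 relative to Bscl2 was 0.948, 0.825 and 0.951 in control mice and 1.70, 1.09 and 2.66 in cachectic mice. Cidec relative to Plin4 was nearly constant in control mice, at 3.16, 3.30 and 3.17, and was 4.96, 9.96 and 4.87 in cachectic mice. The 9 members together took 0.674% to 0.836% of all counts in control mice and 0.760% to 0.934% in cachectic mice.

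The promoter windows of Plin1, which had the largest difference, and Plin2, which showed none that could be detected, differ in their matches to the same motifs. They are given with the same marking, and both lie on the minus strand of GRCm38.p6.
Plin1, chr7:79732727-79733026, minus strand: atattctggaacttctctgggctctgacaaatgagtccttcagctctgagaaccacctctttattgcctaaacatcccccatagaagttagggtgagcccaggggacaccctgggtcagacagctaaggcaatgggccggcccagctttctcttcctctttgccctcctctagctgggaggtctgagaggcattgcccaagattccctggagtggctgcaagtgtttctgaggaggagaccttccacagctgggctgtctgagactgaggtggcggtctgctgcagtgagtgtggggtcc
Plin2, chr4:86670010-86670309, minus strand: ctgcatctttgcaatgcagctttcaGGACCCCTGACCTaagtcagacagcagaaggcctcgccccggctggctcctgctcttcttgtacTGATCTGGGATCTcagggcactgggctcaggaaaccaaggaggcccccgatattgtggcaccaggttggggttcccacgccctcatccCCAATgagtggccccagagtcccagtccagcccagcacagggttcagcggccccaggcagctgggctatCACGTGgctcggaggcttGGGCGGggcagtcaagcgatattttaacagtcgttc
No motif searched was found in the Plin1 window. The Plin2 window held direct repeats at -225 with 2 mismatches and at -161 with 3 mismatches, a single AGGTCA element at -218 inside the former, a CCAAT box at -73, an E-box at -4 and a GC box at 15. Over the members' 13 windows, 6 held a direct repeat, 4 held AGGTCA (16.3% of all windows did) and 5 held a CCAAT box (37.4%). A GC box lay in 6, an E-box in 1 (7.15%), and the C/EBP letters (2.08%) or the TATA box (13.6%) in 0. Windows are not separate genes: those of Plin5 overlap one another, and each held a repeat and AGGTCA. A match describes the letters in the window and no more, and a window without one says nothing of sites elsewhere.

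The genes Plin3, Plin4 and Plin5 share a region of chromosome 17. In the coordinates of the files, which are those of GRCm38, Plin4 (17:56100591-56109803) and Plin5 (17:56111601-56117596) lie on the minus strand 1797 bases apart, and Plin3 (17:56277476-56292873) lies on the same strand 159879 bases farther on. None of the 3 was called, although the adjoining pair differed in level by a wide margin, at 404 ± 61.6 RPKM for Plin4 and 4.70 ± 1.28 RPKM for Plin5 in control mice. Plin1 (7:79720218-79732903), Plin2 (4:86648386-86670060), Cidec (6:113424634-113435760), Fitm2 (2:163466379-163472629), Fitm1 (14:55575617-55576954) and Bscl2 (19:8837467-8848683) lie on other chromosomes.

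The lipases that perilipins hold off, and the proteins that regulate them, were tested as a list of 9 genes. Of these, 1 was higher, 2 were lower and 6 were not called, where 17.6% of all genes tested were called. The median log2 fold change was 0.38, against -0.00 over all genes. Pnpla2, which encodes ATGL, the lipase that opens the attack on triglyceride, was at 1326, 1511 and 1628 CPM in control mice and at 3353, 2445 and 3643 CPM in cachectic mice. It rose 2.11-fold without overlap (edgeR adjusted p = 0.0197), and the call was lost without control replicate 2, control replicate 3 or cachexia replicate 1 (edgeR adjusted p up to 0.0789). G0s2, which encodes the inhibitor of ATGL, was at 552, 352 and 445 CPM in control mice and at 55.8, 31.0 and 136 CPM in cachectic mice. Every cachectic mouse lay below every control mouse, and G0s2 fell by 2.60 on the log2 scale (SE 0.50, edgeR adjusted p = 0.0139). Pnpla3, a relative of ATGL that competes for its co-activator, fell by 3.77 on the log2 scale (SE 0.34, edgeR adjusted p = 0.00133), from 535 ± 124 to 39.1 ± 16.0 CPM (SD, n = 3). G0s2 and Pnpla3 were called without each of the 6 mice in turn.

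Those not called included the lipases of the later steps and the co-activator itself. Lipe, the hormone-sensitive lipase that Plin1 docks, had a log2 fold change of -0.17 (95% confidence interval -0.62 to 0.27), and Mgll, the monoglyceride lipase, one of -0.16. Abhd5, the co-activator that Plin1 binds, had a log2 fold change of 0.39 (edgeR adjusted p = 0.208). Aifm2, which encodes the ferroptosis suppressor FSP1 and can reside on droplets, was at 199, 243 and 279 CPM in control mice and at 359, 310 and 420 CPM in cachectic mice. Its groups did not overlap, but the log2 fold change of 0.59 was not called (95% confidence interval 0.16 to 1.03, edgeR adjusted p = 0.0653). The ATGL inhibitor gene Hilpda had a log2 fold change of 0.38 and the lipase gene Ces1d one of 0.51, and both overlapped between groups.

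**Figure D3:**
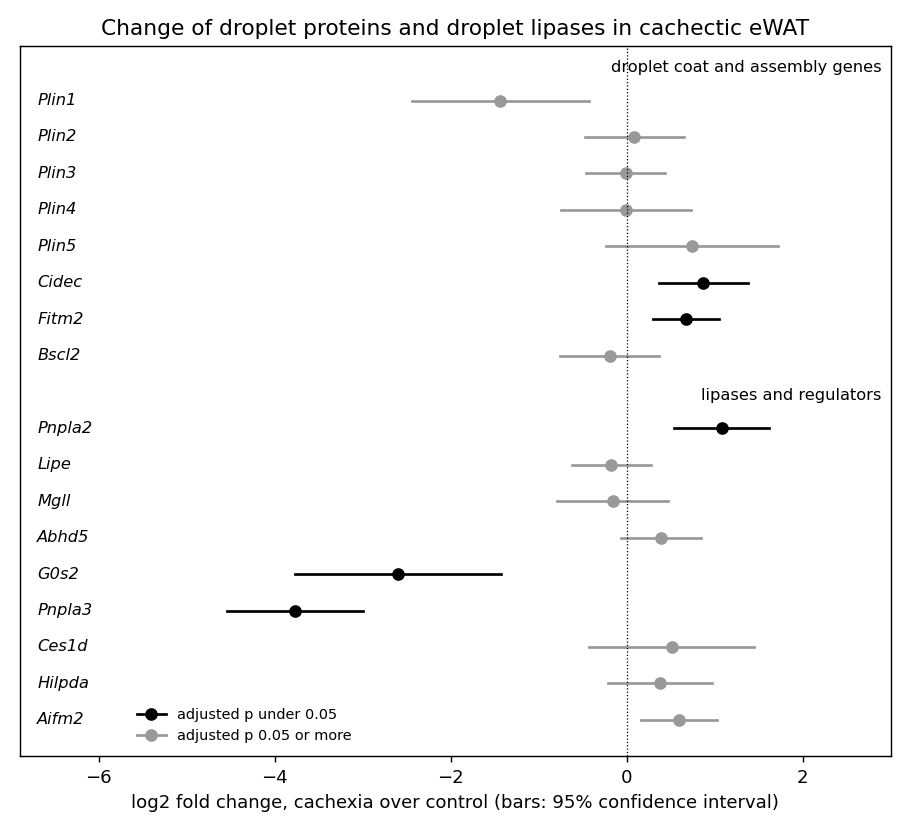
Log2 fold change of cachectic over control mice (x axis) with its 95% confidence interval for the 8 tested lipid droplet protein genes and the 9 lipases and regulators. Black points passed the test at an adjusted p under 0.05 (Cidec, Fitm2 and Pnpla2 higher, G0s2 and Pnpla3 lower) and grey points did not; Plin3 and Plin4 lie at -0.01 and -0.00 and changed sign when counts were scaled by library totals.

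The enzymes that make triglyceride and the factors of droplet formation formed a list of 18 genes, all tested. Of these, 6 were lower, 2 were higher and 10 were not called, where 17.6% of all genes tested were called (median log2 fold change -0.20). Dgat2, the acyltransferase that completes triglyceride at the droplet, was at 2091, 2839 and 2882 CPM in control mice and at 202, 224 and 63.7 CPM in cachectic mice. It was 16.0-fold lower in cachectic mice (SE of the log2 fold change 0.48, edgeR adjusted p = 0.00315). Mogat1, a monoacylglycerol acyltransferase, fell by 1.85 (edgeR adjusted p = 0.0090), and Agpat2, which makes phosphatidic acid, Mogat2, Gpat3 and Acsl3 were the other genes that fell. Lpin1, which converts phosphatidic acid into diacylglycerol, rose 2.16-fold (edgeR adjusted p = 0.0215). Tmem159, which encodes LDAF1, the partner of seipin at sites of droplet formation, rose 1.58-fold (edgeR adjusted p = 0.0321) where Bscl2 was not called. Neither rise was stable to the loss of a mouse: Lpin1 was called in 2 and Tmem159 in 1 of the 6 fits without 1 mouse, whereas Dgat2, Agpat2, Mogat1 and Mogat2 were called in all 6, Gpat3 in 4 and Acsl3 in 1.

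Of 28 other droplet-associated proteins, 27 were tested (median log2 fold change -0.19). Among these, 6 were lower, 3 were higher and 18 were not called, beside the 17.6% called over all genes tested. Nsdhl, a sterol dehydrogenase that can reside on droplets, fell by 2.15 on the log2 scale (SE 0.13, edgeR adjusted p = 0.000878), from 57.9 ± 3.49 to 13.0 ± 1.20 CPM (SD, n = 3). Sqle, the squalene epoxidase, fell by 2.28 (SE 0.18, edgeR adjusted p = 0.00094). Hsd17b7, Lss, Mettl7b and Cav1, the caveolin that lines the adipocyte surface and reaches droplets, were the other members that fell. Rab3gap1, part of the activator of RAB18 at droplets, rose 2.11-fold (edgeR adjusted p = 0.00472), and Mettl7a1 rose 2.08-fold (edgeR adjusted p = 0.0046). Aup1, a droplet protein that recruits ubiquitin enzymes, was the remaining gene that rose, and of the 9 it alone was not called in all 6 fits without 1 mouse (3 of 6).

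Chaperones and E3 ligases that remove perilipins gave a single call, where 17.6% of all genes tested were called. Of 7 genes, 1 was higher, 0 were lower and 6 were not called (median log2 fold change -0.05). March6, an E3 ligase of the endoplasmic reticulum, rose 1.78-fold (edgeR adjusted p = 0.0119). Its call was lost without control replicate 3 (edgeR adjusted p = 0.0647). Of 16 nuclear receptors and factors known at perilipin genes, 2 were higher, 2 were lower and 12 were not called. That count too is read beside the 17.6% called over all genes tested (median log2 fold change of the 16, -0.10). Pparg, the receptor that drives Plin1, Plin4 and Cidec in adipocytes, was at 303 ± 48.3 CPM in control mice and 249 ± 72.8 CPM in cachectic mice (SD, n = 3), and its log2 fold change of -0.28 was not called (edgeR adjusted p = 0.425). Cebpd rose 4.38-fold (edgeR adjusted p = 0.00807) and Epas1, which encodes HIF-2α, rose 1.64-fold (edgeR adjusted p = 0.0483), the latter in none of the 6 fits without 1 mouse. Srebf1, the factor of lipid synthesis, fell by 1.79 on the log2 scale (edgeR adjusted p = 0.0188) and was called in 3 of the 6 fits without 1 mouse. Rxrg fell by 1.19 (edgeR adjusted p = 0.0489) and was called in 2 of the 6. Of the other 2 members of the CIDE family, Cideb was not tested, and Cidea had a log2 fold change of 0.27 (edgeR adjusted p = 0.901) with 1 cachectic mouse at 0.

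**Figure D4:**
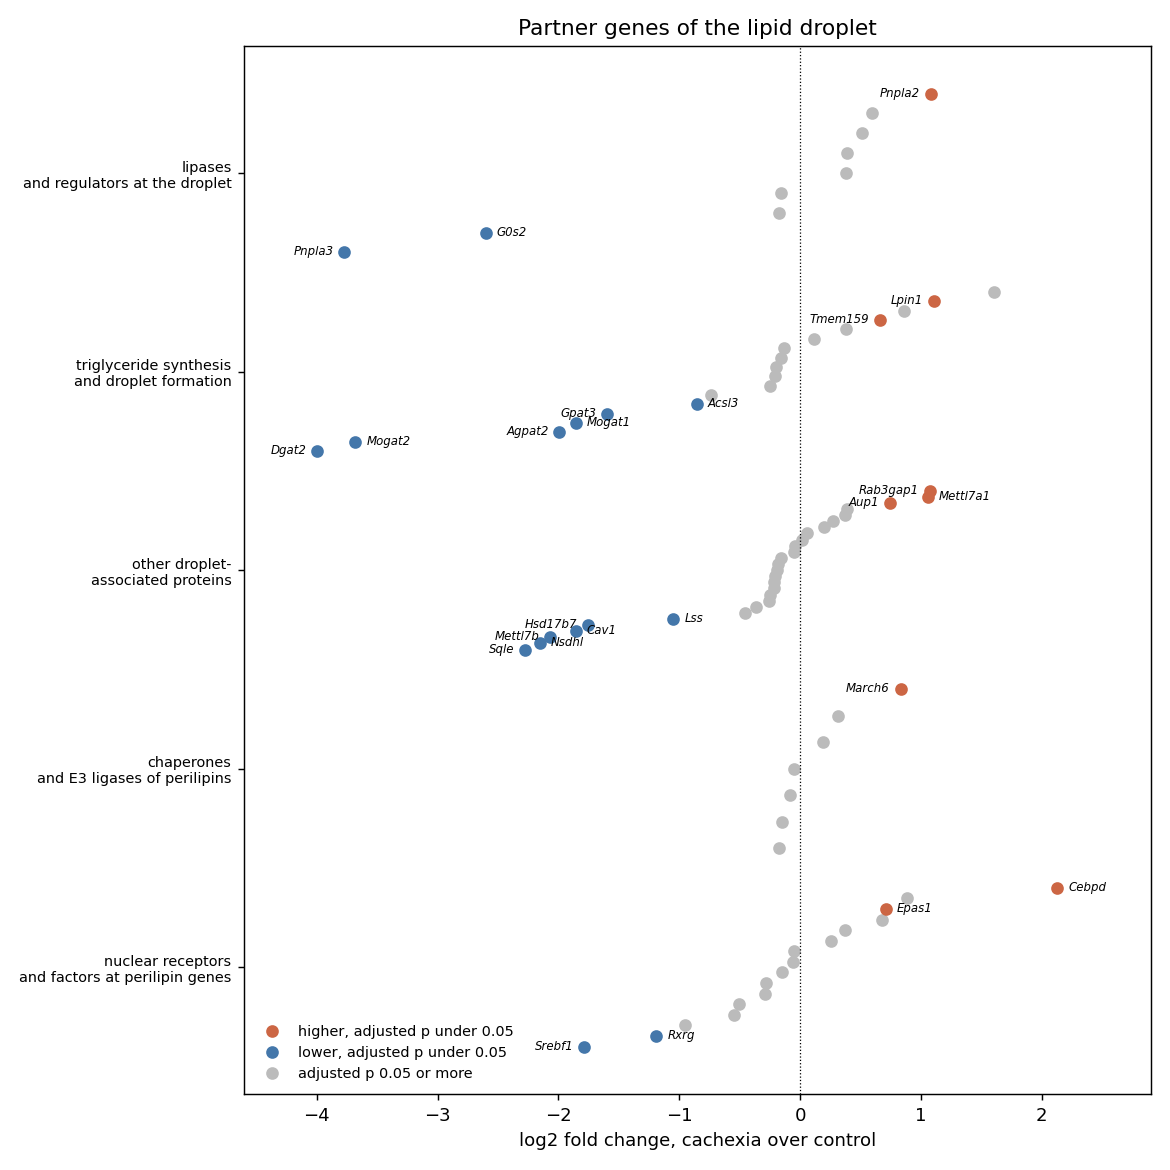
Log2 fold change of cachectic over control mice (x axis) for the tested genes of 5 lists of lipid droplet partners (y axis), each point 1 gene, ordered within its list. Named red points were called higher and named blue points lower at an adjusted p under 0.05; Dgat2 and Pnpla3, the latter at -3.77, lie farthest to the left and Cebpd at 2.13 farthest to the right.

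Markers of the cell types in the tissue were counted in the same libraries. Fewer cells of a type and less RNA per cell cannot be told apart in whole tissue. Of 10 adipocyte markers, 0 were higher, 1 (Lep) was lower and 9 were not called, and their summed level was 29010 to 41648 CPM in control mice and 28957 to 42149 CPM in cachectic mice. The median log2 level of these 10 markers in a mouse was nevertheless 0.60 lower on average in cachectic mice, with overlap between groups. That level rests on the markers of middle rank: Retn in every mouse, with Lep in control replicates 1 and 3 and Adrb3 in the others. The median log2 fold change of the 10 markers was only -0.18. Relative to the median level, Cidec was 1.48 and Fitm2 1.27 higher on the log2 scale in cachectic mice, and Plin4 was 0.52 and Plin2 0.67 higher, each without overlap. Plin4 and Plin2 had log2 fold changes of -0.00 and 0.09 themselves, so their differences here come from the reference. Those of Cidec and Fitm2 were 0.87 and 0.67, so part of their differences here comes from the reference too. Plin1 relative to the same median was 0.98 lower with overlap between groups.

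Neutrophil markers moved with the groups: 8 of 9 tested (10 listed) were higher and 0 lower, with a summed level of 32.3 to 49.6 CPM in control mice and 250.3 to 793 CPM in cachectic mice. Erythroid markers rose in 6 of 6 tested (7 listed), from 252 to 451 CPM in control mice to 1334 to 2856 CPM in cachectic mice. Endothelial markers were higher in 3 of 8 and lower in 0, at 1564 to 1650 CPM against 2236 to 3361 CPM. Fat progenitor markers were higher in 2 and lower in 3 of 8, at 1389 to 1630 CPM against 735 to 905 CPM. Most of the fall in that sum lay in Col15a1, at 641 ± 151 CPM against 108 ± 33.5 CPM (SD, n = 3). Dpt and Pi16 were also lower, Ly6a and Icam1 were higher, and Pdgfra, Dpp4 and Cd34 were not called. Macrophage markers (0 higher, 1 lower of 10) summed to 1417 to 1807 CPM against 1092 to 1711 CPM, and mesothelial markers (0 of 6 called) to 271 to 361 CPM against 155 to 353 CPM. The part of these cells in the values of Cidec, Fitm2 and Plin1 was not tested.

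Markers of brown or beige adipocytes, of skeletal and heart muscle and of the epididymis summed to little RNA. Of 8 brown or beige markers, 4 were tested and 1 (Dio2) was lower, Zic1 was at 0 in every mouse, and the sum was 12.5 to 20.7 CPM in control mice and 7.67 to 51.2 CPM in cachectic mice, with the highest in cachexia replicate 2. Of 10 skeletal muscle markers, 4 were tested and 1 (Actn3) was lower, Myh4 was at 0 in every mouse, and the sum was 35.4 to 51.3 CPM against 9.45 to 60.8 CPM. Of 6 heart markers, 1 was tested and not called, Nppb was at 0 in every mouse, and the sum was at most 12.3 CPM. None of the 10 epididymal markers had enough counts to be tested (sum at most 5.22 CPM), and Spint3 was at 0 in every mouse. Library totals, which set the precision, ran from 14928766 to 18855546 counts and were lower in each cachectic mouse than in any control mouse.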

How the data were processed

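RNA of eWAT from 3 control and 3 cachectic mice was sequenced as paired-end reads. The authors cleaned the reads, mapped them with Hisat2 (version not given in the sources used here) and deposited raw counts per gene from featureCounts 1.5.0-p3. The deposited FPKM values were calculated by the authors from count and gene length. The submitters' processing notes name mm9, but 99.8% of the gene IDs are in GENCODE M21 and 98.3% of those, with all 9 members, have the same coordinates there, so the coordinates are those of GRCm38. The authors' own comparison, made with DESeq2 1.16.1 per the labels, holds fold changes and p-values and was not used here.

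The quasi-likelihood test of edgeR 4.0.16 was run in R 4.3.3 (low counts removed by filterByExpr, TMM scaling, Benjamini-Hochberg over 16003 of 54532 genes, threshold 0.05, no covariates), after the script was tested on simulated data. Total counts were 14928766 to 18855546 and the biological coefficient of variation was 0.264. RPKM was computed from TMM-scaled counts and the deposited gene length. Promoter windows are from RefSeq. One date-like symbol was matched to March6 by its gene ID.

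The genes named are the members, all genes of the lipase list, the 2 genes per direction with the smallest p-value in each other list (further called genes are named without that rule, after their values were seen), tested protein-coding genes within 50 kb of a member, and the gene nearest in pattern to a called member. The members and the lists were chosen with earlier results of these data known.

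Alternatives were RLE size factors, library totals, a filter of at least 10 counts in every sample, no filter at all, DESeq2 1.42.0, limma 3.58.1 (voom, or log2 FPKM with pseudocounts of 1 and 0.1), a replicate block and each mouse left out. List counts under the last 2 were added after seeing the data.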

Additional observations from a re-analysis of the deposited data

How the results depend on the processing

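Cidec and Fitm2 kept their direction in all 15 other settings, and were called in 5 and 9 of them, while Plin1 was lower in all 15 and called in 6. With no filter on low counts, 1 member was called higher and 1 lower, with log2 fold changes of 0.87 for Cidec (edgeR adjusted p = 0.0773) and -1.44 for Plin1. Limma on log2 FPKM gave 1 higher and 1 lower with either pseudocount, with 0.87 for Cidec (adjusted p = 0.0972 and 0.115) and -1.59 for Plin1. DESeq2 (Plin1 -1.44) and limma-voom (Plin1 -1.59) called 1 member lower. With the replicate block, 0 members were called higher, with 0.88 for Cidec (edgeR adjusted p = 0.0937) and 0.67 for Fitm2 (edgeR adjusted p = 0.0592). In that fit 1881 genes were called in place of 2821. Same-numbered mice did not deviate together (r of -0.00314, -0.0113 and 0.00849), and no control mouse correlated with a cachectic mouse above 0.0226. With deviations taken within groups of 3, these values cannot exclude a pairing, and the sources used here state none. Without 1 mouse, 828 (without control replicate 3) to 2339 genes were called over all, 0 to 1 members higher and 0 to 1 lower. The log2 fold change then ranged from 0.76 to 0.98 for Cidec, from 0.61 to 0.78 for Fitm2 and from -2.03 to -1.11 for Plin1. It ranged from -0.16 to 0.22 for Plin2, from -0.22 to 0.094 for Plin3 and from -0.19 to 0.28 for Plin4. For Plin5 it ranged from 0.10 to 1.03 and for Bscl2 from -0.41 to 0.035. Scaling by library totals turned Plin3 to 0.034 and Plin4 to 0.052. The cause of these changes was not tested, though a fit without 1 mouse has fewer samples. DESeq2 called 3884 genes. The difference in a perilipin's share was the same from the deposited FPKM to 3 digits, and without 1 mouse it ranged from -26.3 to -15.7 percentage points for Plin1, 4.18 to 8.78 for Plin2, 0.00703 to 1.09 for Plin3, 9.23 to 19.6 for Plin4 and 0.111 to 1.18 for Plin5. With 3 mice a group, differences within the intervals printed for Plin2, Plin3, Plin4 and Bscl2 remain compatible with the values, and a permutation test cannot go below 0.1.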

Other observations

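Genes beside the members were followed to see whether their surroundings moved with them. Of 42 tested protein-coding genes within 50 kb of a member, 3 were higher and 3 were lower, where 17.6% of all genes tested were called. Whether calls were more or less frequent beside the members than elsewhere was not tested. Sema6b, a semaphorin gene 5489 bases from Plin5 and 13282 bases from Plin4, rose by a log2 fold change of 1.71 (edgeR adjusted p = 0.0025) where neither Plin4 nor Plin5 was called. Lrg1, which is closer, at 2082 bases from Plin5, was not called (edgeR adjusted p = 0.893). Wdr93, 10260 bases from Plin1, fell by 1.69 on the log2 scale (edgeR adjusted p = 0.00267), and Uhrf1, which maintains DNA methylation and lies 10448 bases from Plin3, fell by 2.15 (edgeR adjusted p = 0.0284). Arpc4, 34186 bases from Cidec, fell by 0.49 (edgeR adjusted p = 0.0243) while Cidec rose. Pck2 near Fitm1 and Uqcc3 near Bscl2 rose by log2 fold changes of 0.74 and 0.77. The only tested protein-coding gene within 50 kb was Oser1 for Fitm2 and Haus6 for Plin2, and neither was called.

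Among 13723 protein-coding genes tested, the gene nearest to Cidec in its pattern over the 6 mice was Rhebl1, at a Euclidean distance of 0.194 between centred log2 values, although it was at 1.25 to 2.10 CPM in control mice and 3.25 to 3.93 CPM in cachectic mice. For Fitm2 it was Cd300a, a receptor gene of myeloid cells, at a distance of 0.0455, with 7.58 to 9.18 CPM in control mice and 11.4 to 14.7 CPM in cachectic mice. With 6 mice, such a match is a description of these samples alone.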
